A study of Mus musculus with 2 samples.

Results

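The odorant receptor genes Olfr151 (M71) and Olfr160 (M72) were described as 2 of the 1112 entries of an olfactory receptor (Olfr) expression table. Both were chosen by name, as neighbouring paralogs on chromosome 9 described as acetophenone receptors, and not by their values. Earlier results of these data were known when the choice was made. In this tissue M72 had an FPKM of 1.79 and M71 one of 0.164, so the 2 closely related genes stood on either side of the median receptor. The RNA came from olfactory epithelium, the lining of the nose in which olfactory sensory neurons sit, and the mice were adult C57BL/6 animals labelled as wild type. The 2 libraries form 1 group, with no treatment and no contrast in the titles or genotype labels, although the description of the second reads 3bko, a term the labels do not explain. The table gives 1 FPKM value for each entry, a fragment count divided by the length of the gene model and scaled to the total of mapped fragments, while its sample columns read wt and 3bko in every row. It does not say whether the FPKM belongs to wt, to 3bko or to both, nor which of them the status of an entry rests on. The values below are therefore the authors' single values, which may not be those of a wt library alone. They have no replicates, no error and no known depth, and no difference between them was tested. The table holds no markers of other cell types, so the labelled tissue could be checked only by the presence of receptor transcripts.

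Odorant receptors are G protein-coupled receptors, and a mature olfactory sensory neuron typically transcribes a single allele of a single receptor gene. The axons of neurons that chose the same receptor converge on a few glomeruli of the olfactory bulb. M71 and M72 are class II receptors that respond to acetophenone, and gene-targeted mice made at these loci have been used widely to follow receptor choice, axon targeting and odour learning. In bulk tissue, fewer neurons choosing a receptor and less receptor RNA per neuron cannot be told apart.

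The coding sequences of the pair are shown first, since they bear on how far reads from one gene can be told from those of the other. In GENCODE M21, on the GRCm38 build of the C57BL/6J genome, Olfr160 is a protein-coding gene and Olfr151 is typed as a polymorphic pseudogene, a class for genes that are intact in some strains and disrupted in the reference. RefSeq types them as protein coding and transcribed pseudogene. The coding sequence of Olfr160 has 930 bases and that of Olfr151 has 929. A global alignment placed a single missing base of Olfr151 in a run of G, at bases 741 to 743 of the Olfr160 coding sequence counted from its start codon. The run has 3 bases in Olfr160 and 2 in Olfr151. The stretch around it lies in the single coding exon of each gene, on the minus strand, at chr9:37711505-37711567 for Olfr160 and at chr9:37730210-37730271 for Olfr151 (GRCm38). It is printed 5′ to 3′ with the run in capitals, because it is where the 2 reading frames part.
Olfr160: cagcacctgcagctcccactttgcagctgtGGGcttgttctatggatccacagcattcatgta
Olfr151: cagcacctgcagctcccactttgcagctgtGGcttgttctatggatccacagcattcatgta

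Outside this run the stretch is identical in both genes. Read from its start codon, the reference Olfr151 sequence meets its first stop at codon 259, after 258 codons, whereas Olfr160 has 309 codons before its stop. The frame of Olfr151 is thus 51 codons shorter, at 83.5% of the length of Olfr160. With the missing base put back, it also runs for 309 codons. No protein sequence was used here, and whether the animals sequenced carry the missing base was not tested, since the table holds no reads.

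Apart from the missing base, 899 of the 930 aligned columns were identical (96.7%) and 30 were mismatches. With Olfr151 read in the frame of Olfr160 throughout, these fall in 27 codons, of which 15 encode another amino acid and 12 the same one. The mismatches at bases 806 and 920 lie beyond the first stop of the reference Olfr151 sequence. The mismatches are grouped. Of the 30, 26 lie in the 3 stretches below, which cover 249 bases and are shown with the differing bases in capitals because, within the coding sequence, reads can separate the pair only over such bases or over the missing base. The first spans coding bases 1 to 132, with 11 mismatches (chr9:37712146-37712277 for Olfr160 and chr9:37730850-37730981 for Olfr151, GRCm38, minus strand).
Olfr160: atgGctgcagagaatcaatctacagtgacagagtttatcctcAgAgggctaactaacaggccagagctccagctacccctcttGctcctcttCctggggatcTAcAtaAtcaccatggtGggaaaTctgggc
Olfr151: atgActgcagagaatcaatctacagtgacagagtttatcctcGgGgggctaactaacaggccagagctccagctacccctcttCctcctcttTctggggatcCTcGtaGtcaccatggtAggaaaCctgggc

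The next spans coding bases 431 to 487, with 8 mismatches (chr9:37711791-37711847 for Olfr160 and chr9:37730495-37730551 for Olfr151, GRCm38, minus strand).
Olfr160: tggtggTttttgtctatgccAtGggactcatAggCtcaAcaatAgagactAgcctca
Olfr151: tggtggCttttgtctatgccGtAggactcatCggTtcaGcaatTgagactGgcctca

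The last spans coding bases 574 to 633, with 7 mismatches (chr9:37711645-37711704 for Olfr160 and chr9:37730349-37730408 for Olfr151, GRCm38, minus strand).
Olfr160: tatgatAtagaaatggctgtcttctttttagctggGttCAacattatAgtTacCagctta
Olfr151: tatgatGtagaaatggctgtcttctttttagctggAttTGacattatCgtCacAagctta

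Between these stretches the genes are alike over long runs. There are 7 identical runs of 50 bases or more, and they make up 696 of the 930 columns (74.8%). The longest has 177 bases, from coding base 260 to 436 (chr9:37711842-37712018 for Olfr160, GRCm38, minus strand), and is printed once as the part in which a short read cannot be assigned to either gene.
Olfr160 and Olfr151: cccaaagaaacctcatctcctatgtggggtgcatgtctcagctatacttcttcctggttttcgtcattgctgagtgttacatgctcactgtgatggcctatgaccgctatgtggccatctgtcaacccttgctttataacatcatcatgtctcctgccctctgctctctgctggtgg

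Among all 50-base words of the Olfr160 coding sequence, 355 of 881 (40.3%) also occur in Olfr151. The same 355 words are 40.3% of the 880 words of Olfr151. No other Olfr transcript in GENCODE M21 holds any of them. With words of 36 bases the share of Olfr160 was 51.3%, and 9 such words of each gene also occur in other receptors. It was 26.2% with 75 bases and 15.0% with 100. If 2 mismatches to the partner are allowed, 72.9% of the 50-base words of Olfr160 and 73.0% of those of Olfr151 match it. Neither the read length nor the handling of reads that match both genes is given in the sources used here, so both FPKM values are uncertain, by an amount that was not tested.

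**Figure D1:**
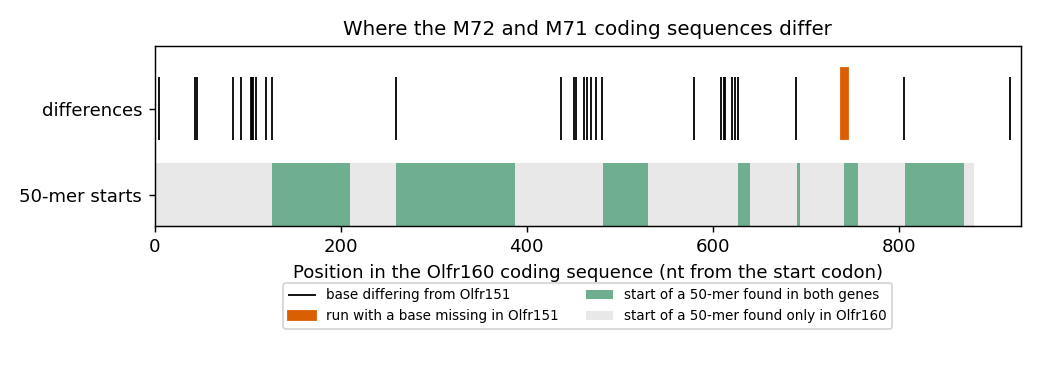
Differences between the M72 (Olfr160) and M71 (Olfr151) coding sequences along the 930 bases of Olfr160, in nucleotides from the start codon. Upper marks are the 30 differing bases and the orange bar is the run of G at 741 to 743 with a base missing in Olfr151. The lower track shows where 50-base words start, in green for the 355 found in both genes and in grey for those found in Olfr160 alone.

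The next most similar receptors are far less alike. Across the coding sequences of 1089 receptors in the table, the one closest to Olfr160 after Olfr151 was Olfr229, at 69.8% identity, followed by Olfr150 at 69.0%. For Olfr151 it was Olfr229 as well, at 69.9%, followed by Olfr985 at 69.5%. The pair belongs to the MOR171 subfamily, a group of related class II receptors. Identity of Olfr160 to 34 other members of that subfamily with a coding sequence ranged from 57.6% to 69.8%, with a median of 66.9%. That of Olfr151 ranged from 57.5% to 69.9%, with a median of 66.5%. Outside the subfamily, Olfr145 of the MOR161 family was 68.8% identical to Olfr160, above the median of 66.9%.

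Olfr160 lies on chromosome 9 from 37518933 to 37519865 (mm9) and had an FPKM of 1.79 with the status OK. Olfr151 lies on chromosome 9 from 37537562 to 37538646 (mm9) and had an FPKM of 0.164 with the status NOTEST, a flag that Cuffdiff, the expression tool named in the submitters' processing notes, gives when too few alignments are present for testing. The value of Olfr160 was 10.9 times that of Olfr151, or 3.45 on the log2 scale. No error can be attached to this ratio. The ratio was 7.15 after adding 0.1 to both values and 2.39 after adding 1. Such additions shrink it by construction and say nothing about its stability. Multiplied by the lengths of the gene models, 933 and 1085 bp, the values correspond to a fragment ratio of 9.38, so that 90.4% of the fragments credited to the pair were credited to Olfr160. Over the joined length of both models the FPKM was 0.914. Moving shared fragments from one gene to the other leaves this joined value as it is, apart from corrections of the model length by the software.

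The gene models behind the values differ between the members. The Olfr160 model is as long as its coding sequence plus 3 bp. GENCODE M21 holds longer Olfr160 transcripts, of 1667 nt with 3 exons and of 3492 nt with 2 exons, the latter with 2562 nt outside the coding sequence. The table's Olfr160 value therefore covers almost none of the annotated untranslated sequence. The Olfr151 model has 1085 bp against 929 coding bases. Its longest GENCODE transcript has 1128 nt in 1 exon, of which 199 nt lie outside the coding sequence. Over the longest annotated transcripts, the share of 50-base words found in the partner was 10.3% for Olfr160 and 32.9% for Olfr151. Whether the model lengths bear on the ratio was not tested.

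Olfr160 ranked 412 of 1112 by FPKM and Olfr151 ranked 964. A lower value was found for 700 of the 1111 other entries (63.0%) in the case of Olfr160 and for 148 (13.3%) in the case of Olfr151. The median of the table was 1.09, which Olfr160 exceeded 1.64 times and which was 6.64 times the value of Olfr151. Between the 2 members stood 551 entries, or 49.6% of the table. With so close a spacing the ranks of neighbours carry no order: Olfr173 (1.79, chromosome 16) and Olfr827 (1.79, chromosome 10) came just above Olfr160, and Olfr459 (1.78, chromosome 6) and Olfr835 (1.78, chromosome 9) just below it. Around Olfr151 stood Olfr1467 (0.166, chromosome 19), Olfr1338 (0.164, chromosome 4), Olfr372 (0.163, chromosome 8) and Olfr1378 (0.162, chromosome 11), all with the status NOTEST. None of these 8 is a MOR171 gene. With 1 value per gene, likeness of pattern could be judged by level alone.

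**Figure D2:**
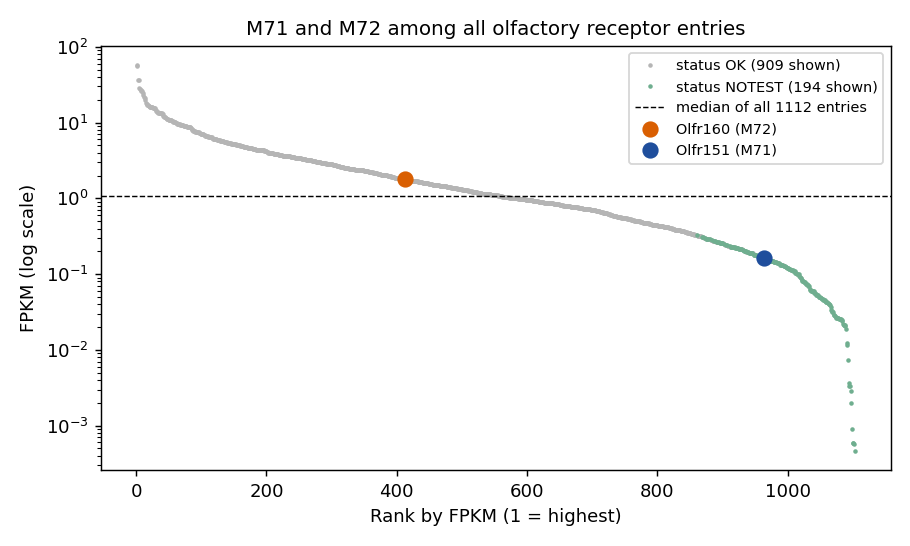
FPKM (log scale) of the receptor entries against their rank, with grey points for status OK, green points for status NOTEST and a dashed line at the median of 1.09. The 9 entries at 0 cannot be drawn on a log axis. Olfr160 at rank 412 lies above the median among OK entries, and Olfr151 at rank 964 lies below it among mostly NOTEST entries.

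The status of Olfr151 is the usual one at its level. Of 82 entries with an FPKM from 0.1 to 0.2, 68 (82.9%) had the status NOTEST and 14 had OK. Across the range in which both statuses occur, from 0.0889 to 0.324, 112 of 161 entries were NOTEST (69.6%). Near Olfr160, all 73 entries with an FPKM from 1.5 to 2 were OK. The status thus separates the members as it separates other entries at these levels.

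The pair sits at the edge of the large receptor cluster of chromosome 9. Olfr160 is the first of its 99 entries, which start at 37.5 Mb and span 2.48 Mb (mm9), and Olfr151 is the next, with 17.7 kb between them. The preceding entry on the chromosome, Olfr18 (1.15), is 17.4 Mb away. Both genes are annotated on the minus strand, whereas the next entries, Olfr874 (1.68), Olfr875 (0.627) and Olfr876 (0.544), all of the MOR161 family, are on the plus strand. Olfr874 lies 15.1 kb beyond Olfr151. The low value of Olfr151 is thus flanked by the values of Olfr160 and Olfr874, both above 1. On the far side of Olfr160 the next entries after Olfr18 are Olfr873 (1.68) and Olfr39 (0.542).

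Within the 99 entries Olfr160 ranked 11 and Olfr151 ranked 79. Olfr160 was above 88 of the 98 others (89.8%) and Olfr151 above 20 (20.4%). The median of the interval was 0.465, with an interquartile range of 0.197 to 0.938. Olfr160 had 3.84 times this median, and the median was 2.84 times the value of Olfr151. Olfr160 was 1 of 23 interval entries (23.2%) that reached an FPKM of 1, against 584 of 1112 (52.5%) in the table. The status NOTEST was given to 30 of the 99 (30.3%), Olfr151 among them, against 203 of 1112 (18.3%). Olfr160 therefore stood higher within its cluster than within the table as a whole, where 63.0% of entries were lower. The interval extends from Olfr912 (6.08), Olfr972 (5.30) and Olfr969 (5.28) at the top to Olfr883 (0.00288) and to Olfr891 and Olfr908, which are listed at 0. Among the 19 entries within 0.5 Mb of the pair, members included, Olfr160 had the highest value and Olfr151 ranked 13.

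**Figure D3:**
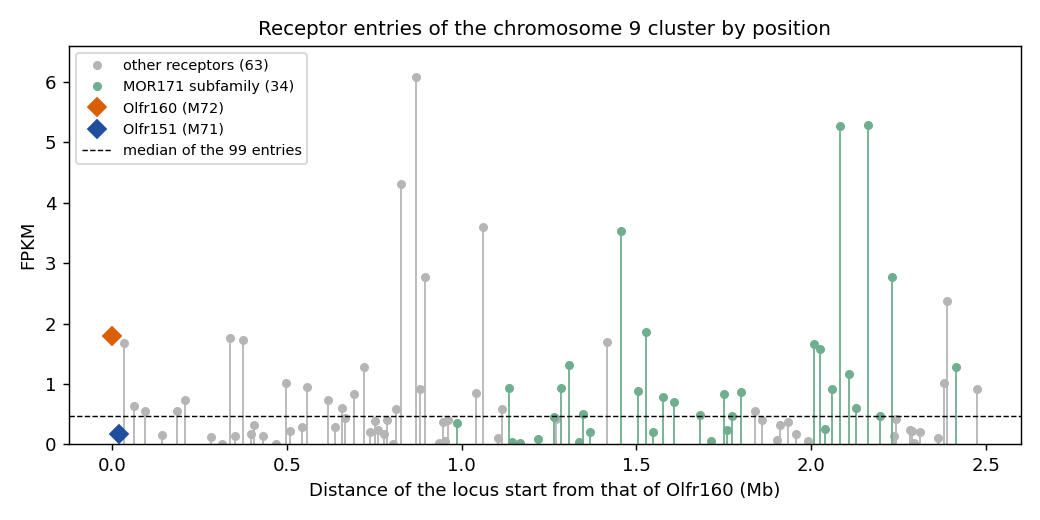
FPKM of the 99 entries of the chromosome 9 interval against the distance of each locus start from that of Olfr160 (Mb). Green stems are MOR171 entries, grey stems are other receptors, diamonds are the 2 members and the dashed line is the median of 0.465. The members stand together at the left edge, Olfr160 above the median and Olfr151 below it, and the other MOR171 entries begin about 1 Mb away.

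The other MOR171 genes lie apart from the pair. The nearest, Olfr919 (0.353), starts 0.966 Mb beyond Olfr151, with 40 entries in between that carry no MOR171 name. By MOR name the subfamily has 37 entries, 36 on chromosome 9 and the other, Olfr1037 (0.322), on chromosome 2. Olfr1037 also carries a MOR256 name. In the interval, the joint entry Olfr242,Olfr27 (1.70), Olfr899 and Olfr900 had no MOR name. They were counted among the other entries, and whether any belongs to the subfamily is not known here. The FPKM of the 37 ranged from 0.0262 for Olfr926 to 5.30 for Olfr972, with a median of 0.696 and an interquartile range of 0.248 to 1.28. The median of the 63 other entries of the interval was 0.402. Of the 37, members included, 11 (29.7%) had an FPKM of 1 or more and 8 (21.6%) had the status NOTEST. Among all 1112 entries these shares were 52.5% and 18.3%.

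Olfr160 ranked 6 and Olfr151 ranked 32 of these 37. Above Olfr160 were Olfr972, Olfr969, Olfr943 (3.53), Olfr974 (2.78) and Olfr1537-ps1 (1.86), and next below it were Olfr965 (1.66) and Olfr150 (1.58). Also at 1 or more were Olfr146 (1.31), Olfr985 (1.28) and Olfr970 (1.17). Below Olfr151 were Olfr930 (0.0830), Olfr952 (0.0531), Olfr26 (0.0315), Olfr936 (0.0315) and Olfr926. The value of Olfr160 was 2.57 times the subfamily median, and the median was 4.25 times that of Olfr151. The members thus fall in the upper and lower parts of their own subfamily, as they do in the table. The remaining 20 entries lay between Olfr151 and an FPKM of 1, the highest of them at 0.940. From the lowest upward these were Olfr938, Olfr945, Olfr955, Olfr967, Olfr1037, Olfr919, Olfr933, Olfr44, Olfr229, Olfr951, Olfr937, Olfr971, Olfr948, Olfr947-ps1, Olfr954, Olfr957, Olfr944, Olfr968, Olfr935 and Olfr924.

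**Figure D4:**
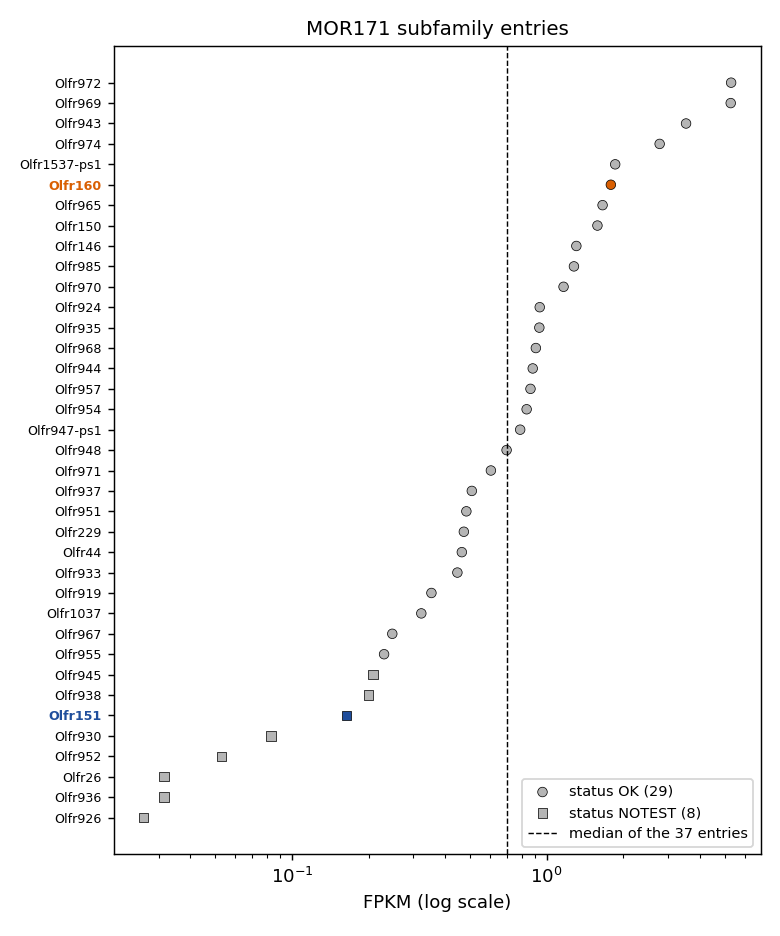
FPKM (log scale) of the 37 MOR171 entries in order of value, with circles for status OK, squares for status NOTEST and a dashed line at the median of 0.696. Olfr160 at 1.79 is the sixth highest, and Olfr151 at 0.164 has 5 entries below it, all NOTEST.

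Entries typed or named as pseudogenes, Olfr151 among them, covered a wide range of values. In the interval there were 5 such entries, namely Olfr1537-ps1 at 1.86, Olfr947-ps1 at 0.787, Olfr911-ps1 at 0.590, Olfr151 at 0.164 and Olfr908 listed at 0. RefSeq types Olfr1537-ps1 and Olfr911-ps1 as protein coding. Over the table, the 27 pseudogene entries, Olfr151 included, had a median of 0.787, with 13 (48.1%) at an FPKM of 1 or more and 9 (33.3%) NOTEST. Among all 1112 entries the median was 1.09 and these shares were 52.5% and 18.3%. Whether the pseudogene type bears on the value of Olfr151 was not tested. Of the 5 in the cluster, Olfr908 alone was lower than Olfr151.

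Against 17 receptors with earlier functional study, a list taken over from previous work on these data, Olfr160 ranked 10 and Olfr151 ranked last. The median of this list was 2.17, and Olfr1507 (MOR28) stood at its top. Olfr160 was followed by Olfr62 (1.52) and Olfr16 (1.38, the lyral receptor MOR23) and preceded by Olfr2 (2.17, the octanal receptor I7) and Olfr73 (2.49, a eugenol receptor). Next above Olfr151 were Olfr558 (0.270) and Olfr545 (0.365). Of the 17, members included, 16 had the status OK and Olfr151 was NOTEST. The NOTEST share was thus 5.88%, against 18.3% of all 1112 entries. The pair together held 0.0660% of the summed FPKM of all receptor entries.

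The RefSeq table of 300-base start windows (GRCm38) has an entry for Olfr160. Its window is placed at the start of the coding model, 3970 nt from the furthest upstream transcript start annotated in GENCODE M21, so it is not printed. On both strands it held no match to TAATNA (a homeodomain-type motif, in 66.4% of 919 windows of receptors in the table), CCCNNGGG (the core of an Olf1/Ebf-type motif, in 2.94%) or TATAAA (in 41.0%). This says only that these letters do not occur in that window.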

How the data were processed

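Olfactory epithelium RNA of 2 libraries, labelled as wild type adult C57BL/6 mice, was extracted with Trizol and sequenced as Illumina TruSeq libraries, as the labels' protocols state. TopHat2, Bowtie2, Cuffdiff and the build mm9 are named in the submitters' processing notes, without versions or roles. The authors deposited FPKM, with 1 value per Olfr entry. Every row reads wt and 3bko in its sample columns, but the FPKM column is tied to neither, so no SD, n or test could be given and depth is unknown. Annotation, strand setting and read length were not given in the sources used here.

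From these values ranks, medians and shares of lower entries were computed with Python 3.11.15 and pandas 2.3.3. Locus starts were raised by 1. Of the 1112 entries (1110 distinct names), 1104 matched RefSeq names and synonyms, from which MOR families were read, and 1095 were found in GENCODE M21. Coordinates of the printed sequences are from GENCODE M21 on GRCm38 and were never mixed with mm9. The longest coding sequences were aligned globally with Biopython 1.88 (match 2, mismatch -3, gap opening -7, extension -1). Words of 50 bases were compared with all transcripts of other Olfr genes, on both strands. The word comparison and the count of lower entries were tested on simulated data, and the other steps were not.

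The members and lists were chosen with earlier results of these data known. Named genes are the members, the MOR171 entries, the 3 nearest entries on each side, the 2 entries above and below in rank, the extremes of the interval, the receptors nearest in coding sequence and those of the studied list closest to the pair, with its highest. Class II receptors were those without a MOR family of 42 or lower among their synonyms, or, where no MOR name is given (17 entries), those outside the class I symbol numbers. Pseudogene entries of the interval were named after their values were seen. A planned comparison of protein identity was replaced by coding identity.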

Additional observations from a re-analysis of the deposited data

How the results depend on the processing

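The ratio of Olfr160 to Olfr151 was 10.3 with a pseudocount of 0.01, 7.15 with 0.1 and 2.39 with 1; a pseudocount by construction shrinks the ratio and cannot turn its direction, so these values say nothing about its stability. The share of entries below Olfr160 in the table was 59.5% among entries at FPKM 0.1 or more and 54.7% among entries with status OK. For Olfr151 it was 5.12% among entries at FPKM 0.1 or more. These settings remove only entries lower than the member, so they lower its share by construction. Among class II receptors the share below Olfr160 was 59.3%. That setting removes entries by class and not by value, and the class II median was 1.25 against 1.09 for all entries. Within 0.5 Mb of the pair the share was 100% for Olfr160 and 33.3% for Olfr151, and among interval entries at FPKM 0.1 or more it was 8.24% for Olfr151. The share of words also found in other receptors was 51.3% for both genes with 36 bases, 26.2% for both with 75, 15.0% for Olfr160 and 15.1% for Olfr151 with 100, and 10.3% and 32.9% over whole transcripts. With 2 mismatches allowed, an alternative chosen after seeing the data, it was 72.9% and 73.0%. The 12 other alternative values include those without pseudogenes or with each locus once. They lay within the 95% exact binomial interval of the main value or, for the MOR171 median, within the interquartile range. That interval treats table entries, or overlapping words, as independent draws, which they are not. Both ranges were used for description only and give no error of these values. Counting words shared with the partner alone could not change the share, since no word of the main length occurred in another receptor. Limiting the MOR171 entries to chromosome 9 removed Olfr1037 alone. No paired analysis was possible because the table has a single FPKM column, tied to neither the wt nor the 3bko named in its rows, so leaving out replicate 1 or 2 was not run either. Depth is unknown, so the counting error of the low value of Olfr151 could not be given.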
